A study of Mus musculus with 24 samples.

Results

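Hypoxia-inducible factor (HIF) subunits and the enzymes that read oxygen for them were examined in retinal RNA of C57Bl/6 mouse pups. The group was chosen by gene name. It has 9 members: the alpha subunits Hif1a and Epas1, their partners Arnt and Arnt2, the prolyl hydroxylases Egln1, Egln2 and Egln3, the ubiquitin ligase subunit Vhl, and the asparaginyl hydroxylase Hif1an. Of the 22690 probe sets deposited, 15 carried one of these symbols alone, and they stood for 8 of the 12393 genes so named. Hif1an was not analysed here.

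The arrays fell into 8 groups of 3. Pups in room air were sampled at postnatal days 7, 8, 10 and 12. Pups of the same ages had been exposed to hyperoxia for 12, 24, 72 and 120 hours, so age and duration of exposure cannot be told apart. All groups share the strain and the tissue. Neither the percentage of oxygen nor the number of pups behind an array is in the labels. Nor do they tell separate animals from repeat preparations, so each p-value speaks only to the scatter among these arrays, part of which may be technical. In whole tissue, fewer cells of a type and less RNA per cell cannot be told apart.

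The HIF alpha subunits are made continuously, and their amount is set mainly by protein turnover. In the presence of oxygen the EGLN enzymes hydroxylate prolines of the alpha subunit, the VHL protein binds the hydroxylated form, and the subunit is degraded. When oxygen is scarce the alpha subunit persists, pairs with ARNT or ARNT2 and binds short DNA elements with the core ACGTG or GCGTG. Egln1 and Egln3 are themselves known targets of HIF, which makes a feedback loop. In the developing retina this system drives the release of vessel growth factors ahead of the growing vessels. An array of this kind reads transcript only and says nothing of protein or hydroxylation.

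Because Egln1 was lower in hyperoxia and is set beside the other prolyl hydroxylases, the 250 bases before their transcription starts are shown, from RefSeq on GRCm38.p6. Capitals mark ACGTG, searched on both strands. Egln1 lies at chr8:124949255-124949504, minus strand. Egln2, by the more upstream of its starts, lies at chr7:27166803-27167052, minus strand. Egln3 lies at chr12:54203875-54204124, minus strand.
Egln1: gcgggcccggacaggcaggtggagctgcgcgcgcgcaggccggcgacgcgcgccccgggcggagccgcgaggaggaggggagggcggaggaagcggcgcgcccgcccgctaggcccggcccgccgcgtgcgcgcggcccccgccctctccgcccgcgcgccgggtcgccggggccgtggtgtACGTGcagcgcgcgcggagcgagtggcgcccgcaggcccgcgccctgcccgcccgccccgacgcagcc
Egln2: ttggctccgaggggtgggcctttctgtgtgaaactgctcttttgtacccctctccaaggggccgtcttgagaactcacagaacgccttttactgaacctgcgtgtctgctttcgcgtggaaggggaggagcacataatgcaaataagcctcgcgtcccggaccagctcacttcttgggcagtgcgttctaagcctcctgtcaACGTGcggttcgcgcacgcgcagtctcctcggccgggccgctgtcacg
Egln3: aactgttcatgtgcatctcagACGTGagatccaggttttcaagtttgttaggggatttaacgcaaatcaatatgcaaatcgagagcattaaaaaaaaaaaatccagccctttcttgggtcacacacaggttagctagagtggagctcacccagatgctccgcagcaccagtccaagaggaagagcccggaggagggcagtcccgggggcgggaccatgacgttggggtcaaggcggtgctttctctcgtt

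The element begins 68 bases before the start in Egln1, 48 in Egln2 and 229 in Egln3, each time once in these letters. A second Egln2 window, at chr7:27165729-27165978 on the minus strand, holds no ACGTG on either strand. Of all 32851 RefSeq promoter windows of this length, 16.6% hold ACGTG on either strand and 28.2% hold GCGTG. The Egln1 window holds GCGTG 1 time, on the strand shown. The more upstream Egln2 window holds GCGTG 2 times on the strand shown and 1 time on the other. It is found 1 time in the second Egln2 window and 0 times in the Egln3 window. Among the members, 8 genes had a window, and 4 of them (the 3 hydroxylases and Hif1a) hold ACGTG. A match is a description of letters only, and the hydroxylase whose transcript changed shares it with the 2 that did not pass the test for hyperoxia, in Egln2 in 1 of its 2 windows.

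The libraries carried retinal RNA. The 5 measured rod genes stood between the 97.68th and the 99.99th percentile of mean level. Lens RNA varied between arrays, with a mean log2 level of 12 lens genes from 7.25 to 13.95 in room air and from 7.48 to 13.90 in hyperoxia. The ratio of 3′ to 5′ actin control probe sets, a sign of RNA integrity, ran from 0.05 to 0.38 on the log2 scale. The same ratio for Gapdh ran from -0.47 to -0.20. Array medians ran from 570.2 to 679.7 as deposited. All values below are log2 intensities after quantile normalization, with the standard error of the fit after ±, unless marked as SD. Levels of different probe sets are not set against each other.

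Egln1, the main oxygen-sensing prolyl hydroxylase of most tissues, was lower in hyperoxia. Averaged over the 4 days its brighter probe set, 1423785_at, fell by 0.33 ± 0.06, to 79.3% of the room air level (limma adjusted p = 0.00331, 95% interval -0.45 to -0.22). It was the 1 probe set called among the 14 members tested, beside 0.492% of all 15838 probe sets tested, of which 0.474% were lower. The second probe set, 1451110_at, differed by -0.39 ± 0.10, or 76.1% of room air, and did not pass (adjusted p = 0.116). It was called in 3 of 36 other settings, 1 of them without room air day 8 replicate 1 (-0.45, adjusted p = 0.0218) and the others with the replicate numbers as a block (adjusted p = 0.0383, and 0.0385 with a block within each day). Both probe sets were made from the same transcript record, so they are not independent genes.

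The single arrays of 1423785_at are given for each day. At day 7 the room air arrays read 12.25, 12.34 and 11.91 and the hyperoxia arrays 11.94, 11.95 and 11.82. The groups overlap there through 1 room air array. At day 8 the values were 12.12, 12.19 and 12.17 in room air and 11.89, 11.74 and 11.78 in hyperoxia. At day 10 they were 12.15, 12.03 and 11.94 against 11.63, 11.77 and 11.52, and at day 12 they were 12.12, 12.22 and 11.97 against 11.87, 11.75 and 11.73. From day 8 on, every hyperoxia array lay under every room air array. Such separation downwards was met in 5.49%, 11.9% and 6.69% of all probe sets at days 8, 10 and 12.

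**Figure D1:**
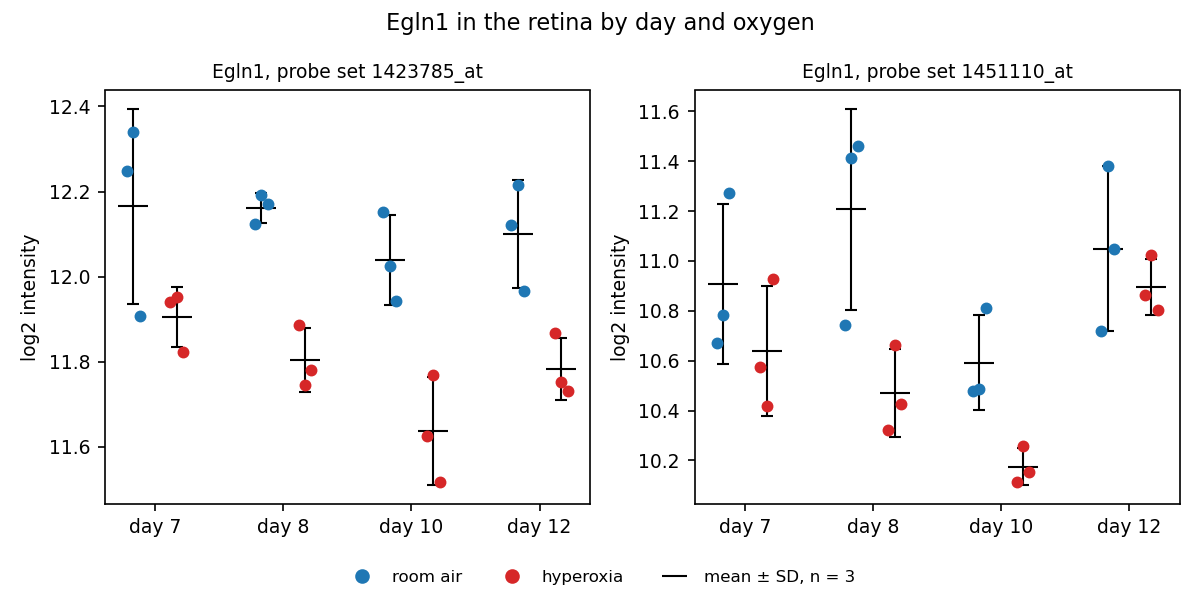
Log2 intensity of the 2 Egln1 probe sets on each of the 24 arrays, by postnatal day, in room air (blue) and hyperoxia (red), with the mean and SD of each group of 3 as black lines. On the left, the hyperoxia arrays lie under the room air arrays at days 8, 10 and 12, and on the right at days 8 and 10.

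Over the 24 arrays the group means of 1423785_at fell in the order day 7, day 8, day 12 and day 10 in room air (12.16, 12.16, 12.10 and 12.04), then day 7, day 8, day 12 and day 10 in hyperoxia (11.91, 11.80, 11.78 and 11.64). All 4 room air means were thus above all 4 hyperoxia means. Neighbours in this order overlapped in their arrays throughout. The probe set changed little with age, by -0.06 ± 0.11 from day 7 to day 12 in room air (adjusted p = 0.777) and -0.12 ± 0.11 in hyperoxia (adjusted p = 0.543).

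The second Egln1 probe set was lower at days 8 and 10 without overlap. At day 8 it read 10.74, 11.41 and 11.46 in room air and 10.32, 10.66 and 10.42 in hyperoxia. At day 10 it read 10.48, 10.49 and 10.81 against 10.11, 10.26 and 10.15. At day 12 the groups overlapped, with 10.72, 11.38 and 11.05 against 10.86, 11.02 and 10.80. At day 7 they overlapped too, with 10.67, 10.78 and 11.27 against 10.57, 10.42 and 10.93. When both probe sets were averaged, Egln1 fell by 0.36 ± 0.05 over the days (limma adjusted p = 0.000818) and by 0.55 ± 0.11 at day 8 (adjusted p = 0.0485).

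No single member probe set passed on a single day in the fit over all 24 arrays without covariates. The differences of 1423785_at were -0.26 ± 0.11, -0.36 ± 0.11, -0.40 ± 0.11 and -0.32 ± 0.11 at days 7, 8, 10 and 12 (limma adjusted p = 1, 0.83, 0.206 and 0.442). Over all probe sets limma called 0.0631%, 0.0821%, 0.0631% and 0.0126% on these days. At an unadjusted p under 0.05 the members numbered 1, 3, 1 and 1 of 14, beside 3.17%, 4.92%, 10.9% and 8.73% of all probe sets. Any difference among the days was not detected in 1423785_at (F test, adjusted p = 0.977), and the change from day 7 to day 12 in its hyperoxia difference was -0.06 ± 0.16. Over all probe sets limma called 0 (0%) for either of these, with 1038 and 983 at an unadjusted p under 0.05.

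An exact permutation test that relabels oxygen within days, over 160000 relabelings, gave p = 3.75e-05 for 1423785_at and p = 0.00183 for 1451110_at (both two-sided and unadjusted, chosen after the values were seen, with 3 arrays a group). The average difference of 1423785_at was called in 35 of 36 other settings. The exception was the fit with the endothelial score, the mean log2 level of 12 vessel lining genes, as a covariate. There 1423785_at was at -0.14 ± 0.09 (adjusted p = 0.629) and 1451110_at at -0.83 ± 0.14 (adjusted p = 0.122), and 0 of all probe sets were called.

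Endothelial markers moved with oxygen on the same arrays. Of 11 tested, 10 had a negative difference on average over the days and 5 of these passed, among them Cldn5, a tight junction protein, at -0.66 (adjusted p = 0.00105). The score ran from 8.92 to 9.74 in room air and from 8.75 to 9.07 in hyperoxia. None of these 12 genes was at the floor on all arrays. Rgs5, a pericyte marker, was lower too (-0.49, adjusted p = 0.00141), as 1 of 6 pericyte and smooth muscle genes tested, and so was Alas2, the erythroid heme synthase (-1.08, adjusted p = 0.00693), the 1 of 3 red blood cell genes tested. Because the score itself moved with oxygen, the covariate fit cannot separate vessel cells from oxygen. The part of vessel cells in the Egln1 difference was not tested.

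Egln2, a prolyl hydroxylase that is not known as a HIF target, stayed near its room air level. Its 1 probe set, 1416533_at, differed by -0.03 ± 0.08 on average over the days (adjusted p = 0.946, 95% interval -0.20 to 0.13). At day 7 the hyperoxia arrays read 11.91, 11.88 and 11.96 and the room air arrays 11.65, 11.87 and 11.87, so the groups did not overlap, with hyperoxia higher by 0.12 ± 0.16. Upward separation of this kind was met in 4.14% of probe sets at that day. At day 8 the hyperoxia arrays read 11.40, 11.62 and 12.11 and the room air arrays 11.95, 11.64 and 11.89. The groups overlapped there and at days 10 and 12, and the differences on the 3 days were -0.11, -0.11 and -0.03.

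Egln3, the hydroxylase best known for strong induction by low oxygen, was dim, and its 2 probe sets lay near the floor set on low values, a log2 of 7.10. At day 7 the brighter one, 1418649_at, read 8.38, 7.84 and 8.56 in room air and 8.77, 8.44 and 8.62 in hyperoxia. At day 10 it read 8.33, 8.10 and 8.29 against 7.60, 8.06 and 8.29, and at day 12 8.48, 8.16 and 8.37 against 8.19, 7.82 and 8.00. The groups overlapped on each of these days. The probe set differed by 0.35 ± 0.19, -0.0013 ± 0.19, -0.25 ± 0.19 and -0.33 ± 0.19 at days 7, 8, 10 and 12, none of which passed. The average was -0.06 ± 0.09 (adjusted p = 0.904, 95% interval -0.25 to 0.14). The dimmer one, 1418648_at, had 2 of 24 arrays at the floor, and its differences were 0.53, -0.18, -0.31 and -0.14 ± 0.29. Both probe sets read higher in hyperoxia at day 7 and lower at day 12. The F test of a difference among the days did not pass for either (adjusted p = 0.779 and 0.837).

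**Figure D2:**
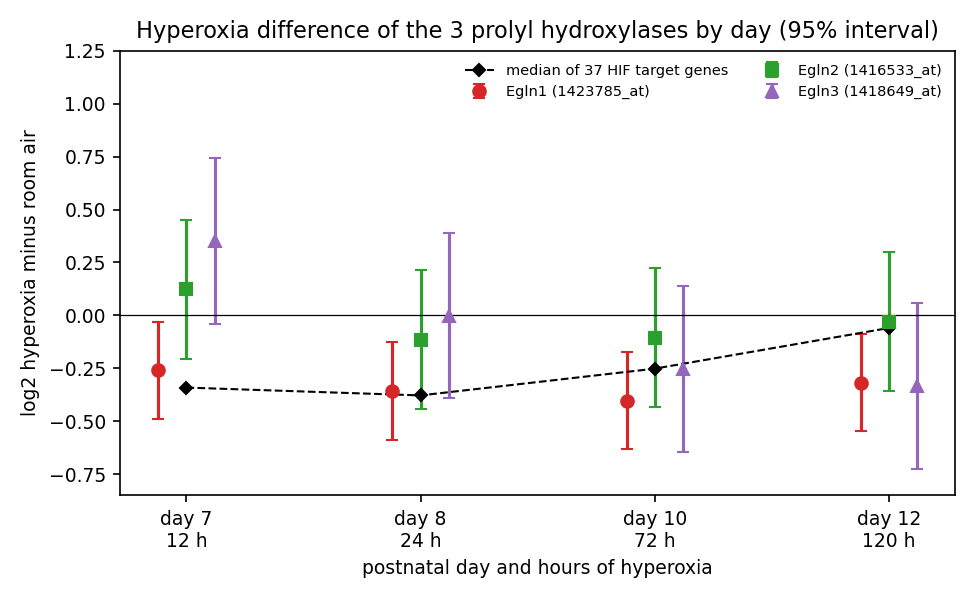
Log2 difference of hyperoxia from room air at each day for the brightest probe set of Egln1, Egln2 and Egln3, with 95% intervals of the fit, and the median difference of 37 HIF target genes (dashed line). The Egln1 intervals lie under 0 at each day, those of Egln2 and Egln3 span it, and the target median goes from -0.34 at day 7 to -0.06 at day 12.

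The hyperoxia differences of the 3 hydroxylases were set against each other array by array, with exact two-sided permutation tests (160000 relabelings of oxygen within days, 3 arrays a group, adjusted over 3 pairs, chosen after the values were seen). The ratio of Egln1 to Egln2 was lower in hyperoxia by 0.30 on the log2 scale in the exact test (-0.30, p = 0.00255, adjusted p = 0.00765), and it was negative on 4 of 4 days. The ratio of Egln1 to Egln3 differed by -0.28 (exact p = 0.0394, adjusted p = 0.059), negative on 3 days. The ratio of Egln2 to Egln3 differed by 0.03 (exact p = 0.827). In these tests the brighter Egln1 probe set, already called for hyperoxia, passed against Egln2 and did not pass the adjustment against Egln3. The second Egln1 probe set was not set against the other hydroxylases. A comparison picked from the same values is a description and not independent support for a difference between the genes.

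Hif1a was represented by 4 probe sets, and none passed for hyperoxia. Their averages over the days were 0.03 ± 0.06 (1416035_at), -0.03 ± 0.07 (1427418_a_at), -0.23 ± 0.11 (1431981_at) and 0.16 ± 0.27 (1448183_a_at). The intervals of the first 2 ran from -0.10 to 0.17 and from -0.17 to 0.10. The dim probe set 1431981_at had the lower mean in hyperoxia at each of the 4 days (-0.31, -0.27, -0.14 and -0.20), without passing (adjusted p = 0.546). Its arrays overlapped on every day, as at day 7, with 8.68, 8.83 and 8.79 in room air and 8.11, 8.74 and 8.53 in hyperoxia. Together with both Egln1 probe sets it made 3 of 14 members lower at every day, beside 6.94% of all probe sets.

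With age in room air, 1 Hif1a probe set rose and the other 3 did not pass. Probe set 1416035_at read 12.25, 12.11 and 11.76 at day 7 and 12.59, 12.45 and 12.68 at day 12. No arrays overlapped, though such separation by age was not counted over all probe sets. The probe set rose by 0.53 ± 0.13 (limma adjusted p = 0.00923). This was 1 of 14 members, or 7.14%, beside 12.4% of all probe sets, of which 7.16% were higher, so the members' share is near the background. Its group means in room air were 12.04, 12.37, 12.51 and 12.57 at days 7, 8, 10 and 12. The same contrast was 0.04 ± 0.13 for 1427418_a_at, -0.18 ± 0.22 for 1431981_at and 0.13 ± 0.53 for 1448183_a_at. The rise was not called without room air day 7 replicate 3 (0.39, adjusted p = 0.0758), with only the 6 arrays compared in the fit (adjusted p = 0.104) or for the mean of the Hif1a probe sets (0.13, adjusted p = 0.646). It was also lost with the endothelial score as a covariate (0.45, adjusted p = 0.0723) and without the 2 arrays richest in lens RNA for their group (0.48, adjusted p = 0.0505).

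In hyperoxia 1416035_at differed by 0.25 ± 0.13 from day 7 to day 12 (adjusted p = 0.236). The brightest probe set, 1427418_a_at, read 13.87, 13.61 and 13.57 at day 7 and 14.21, 13.81 and 14.13 at day 12 in hyperoxia. Its difference of 0.37 ± 0.13 did not pass (adjusted p = 0.0762) but was called with a robust prior (adjusted p = 0.0393) and without 1 of 2 hyperoxia arrays, day 7 replicate 1 or day 12 replicate 2 (adjusted p = 0.0499 and 0.0285). At day 8 its hyperoxia arrays, at 13.68, 13.68 and 13.84, all lay under its room air arrays, at 13.86, 13.93 and 14.06. Downward separation of this kind was met in 5.49% of all probe sets at that day. The day 8 difference was -0.22 and did not pass.

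**Figure D3:**
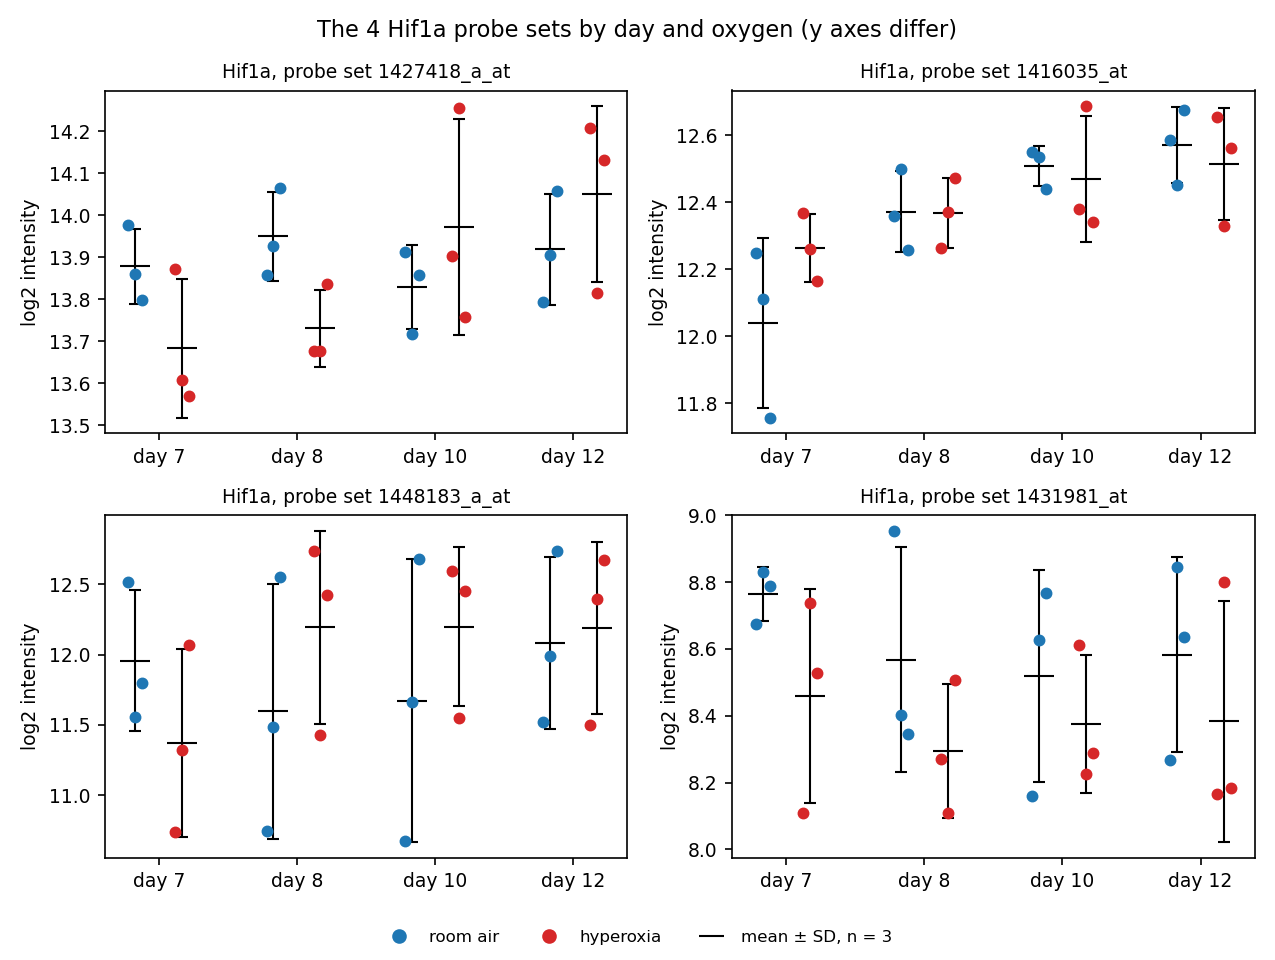
Log2 intensity of the 4 Hif1a probe sets on each array by day, in room air (blue) and hyperoxia (red), with group mean and SD in black and a separate y axis per panel. Probe set 1416035_at climbs in room air from day 7 to day 12, while the 3 arrays of a group lie far apart in 1448183_a_at, whose group SDs run from 0.50 to 1.00.

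The age comparison in hyperoxia also called 1 of 14 members, beside 12.6% of all probe sets, of which 6.64% were lower. Egln3 probe set 1418649_at read 8.77, 8.44 and 8.62 at day 7 and 8.19, 7.82 and 8.00 at day 12, without overlap. Such separation by age was not counted over all probe sets. The probe set fell by 0.61 ± 0.19 (limma adjusted p = 0.0375). In room air the same probe set differed by 0.08 ± 0.19 (adjusted p = 0.846), and the difference between both age changes was -0.68 ± 0.26 (adjusted p = 0.743), so a different course in hyperoxia was not shown. The dimmer Egln3 probe set was at -0.54 ± 0.29 in hyperoxia (adjusted p = 0.25). The call was lost in 12 of 35 other settings, 4 of which leave out 1 hyperoxia array, day 7 replicate 1 or 3 or day 12 replicate 2 or 3 (adjusted p from 0.0868 to 0.136). With lens and pigment scores as covariates the value was -0.42 (adjusted p = 0.42), and the difference was -0.05 with the floor at the 40th percentile.

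Epas1, the alpha subunit prominent in endothelium, had 1 dim probe set with wide spread. At day 8 its hyperoxia arrays read 9.59, 8.28 and 7.80 and its room air arrays 8.74, 8.31 and 8.89. Its average difference was -0.03 ± 0.19 (adjusted p = 0.987, 95% interval -0.42 to 0.37). From day 7 to day 12 it differed by 0.61 ± 0.38 in room air and 0.78 ± 0.38 in hyperoxia (adjusted p = 0.342 and 0.209). Groups overlapped at every day. The interval leaves room for a change as large as that of Egln1 in either direction.

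Arnt, the constitutive partner of both alpha subunits, did not pass in any comparison. Probe set 1421721_a_at was at 0.18 ± 0.14 and 1425064_at at 0.13 ± 0.09 on average over the days (adjusted p = 0.781 and 0.726). At day 8 probe set 1425064_at read 8.34, 8.35 and 8.75 in hyperoxia and 7.81, 8.04 and 8.30 in room air, all higher, as in 4.48% of all probe sets. At day 10 it read 7.91, 8.15 and 7.99 against 8.19, 8.25 and 8.34, all lower, as in 11.9% of all probe sets. Neither difference passed (0.43 ± 0.18 and -0.24 ± 0.18, adjusted p = 0.963 and 0.622).

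Arnt2, a partner abundant in neurons, was dim. Probe set 1420670_at averaged -0.06 ± 0.19 for hyperoxia (adjusted p = 0.959) and differed by -0.76 ± 0.39 from day 7 to day 12 in room air (adjusted p = 0.222). The other, 1420669_at, was under the filter on low levels, with 9 of 24 arrays at the floor. It was not tested in the main analysis. All 3 of its hyperoxia arrays at day 12 were at the floor. At day 8 its hyperoxia arrays all lay above its room air arrays, with group means of 7.80 and 7.23 and the room air median at the floor. Such upward separation was met in 4.48% of all tested probe sets.

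Vhl, the substrate-binding subunit of the ligase, was at 0.06 ± 0.12 on average over the days (adjusted p = 0.915, 95% interval -0.18 to 0.31). Its room air arrays at day 8 spread over 9.96, 10.34 and 10.76, and its hyperoxia arrays over 10.83, 10.34 and 10.66. The groups overlapped at every day, and over all 24 arrays Vhl ran from 9.96 to 10.87. The age differences were 0.03 ± 0.23 in room air and 0.21 ± 0.23 in hyperoxia (adjusted p = 0.964 and 0.622).

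**Figure D4:**
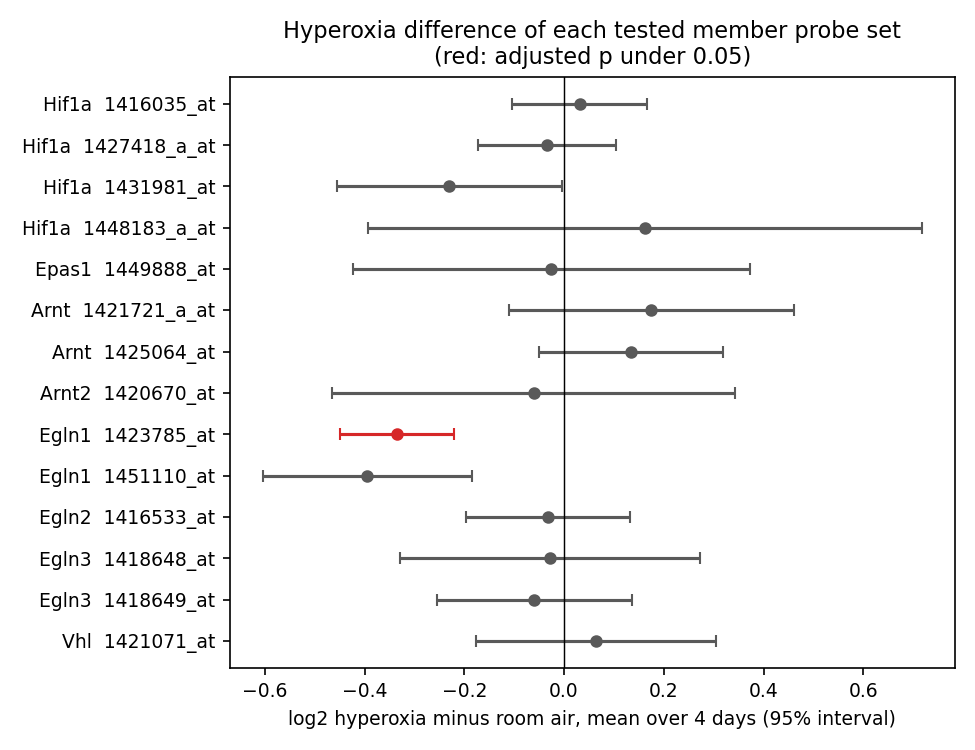
Log2 difference of hyperoxia from room air, averaged over the 4 days, for each of the 14 tested member probe sets, with the 95% interval of the fit. Egln1 1423785_at, in red, is the one with an adjusted p under 0.05, and the second Egln1 probe set lies beside it with a wider interval.

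In each of 4 members, 1 probe set shared a pattern over the arrays that crossed days and oxygen groups. Hif1a 1448183_a_at ranged over 2.07 log2 units, with room air values at day 8 of 10.75, 11.49 and 12.55. As deviations from group means over 24 arrays, it correlated with Vhl at r = 0.93 (Spearman rho 0.91, permutation p = 1e-05, the smallest that 100000 permutations can give, adjusted p = 0.00013 over 13 relations). With Arnt 1421721_a_at r was 0.88 (rho 0.86, permutation p = 4e-05, adjusted p = 0.00026), and with Arnt2 1420670_at r was 0.80 (rho 0.78, permutation p = 0.00063, adjusted p = 0.00273). Without the 2 arrays farthest from the median these were 0.94, 0.87 and 0.75. The second Arnt probe set, 1425064_at, did not pass (r = 0.44, rho 0.42, permutation p = 0.0533, adjusted p = 0.173). How many of all probe sets correlate as closely in their deviations was not counted. The correlations were not among the planned comparisons, and the adjustment covers only the 13 relations of this 1 Hif1a probe set.

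The other Hif1a probe sets showed no such correlation. The r of 1448183_a_at was -0.09 with 1427418_a_at (rho -0.03, permutation p = 0.69) and -0.30 with 1416035_at (rho -0.26, permutation p = 0.177). It was 0.29 with 1431981_at (rho 0.27, permutation p = 0.284). Over all tested probe sets, 365, or 2.3%, had an absolute r above 0.8 with the levels of 1448183_a_at over the 24 arrays. On that measure, which keeps the group means in, Vhl was at 0.94, Arnt 1421721_a_at at 0.85 and Arnt2 1420670_at at 0.55. The 3′ to 5′ actin ratio moved with the pattern, with r = -0.64 for the deviations from group means over 24 arrays (rho -0.69, permutation p = 0.0036, and r = -0.56 without the 2 arrays farthest from the median). Its part in the pattern was not tested. With the level of Hif1a 1448183_a_at as a covariate, Egln1 1423785_at was at -0.33 ± 0.05 (adjusted p = 0.00362). The SE of the average over the days was 0.27 for Hif1a 1448183_a_at and 0.06 for Egln1 1423785_at.

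**Figure D5:**
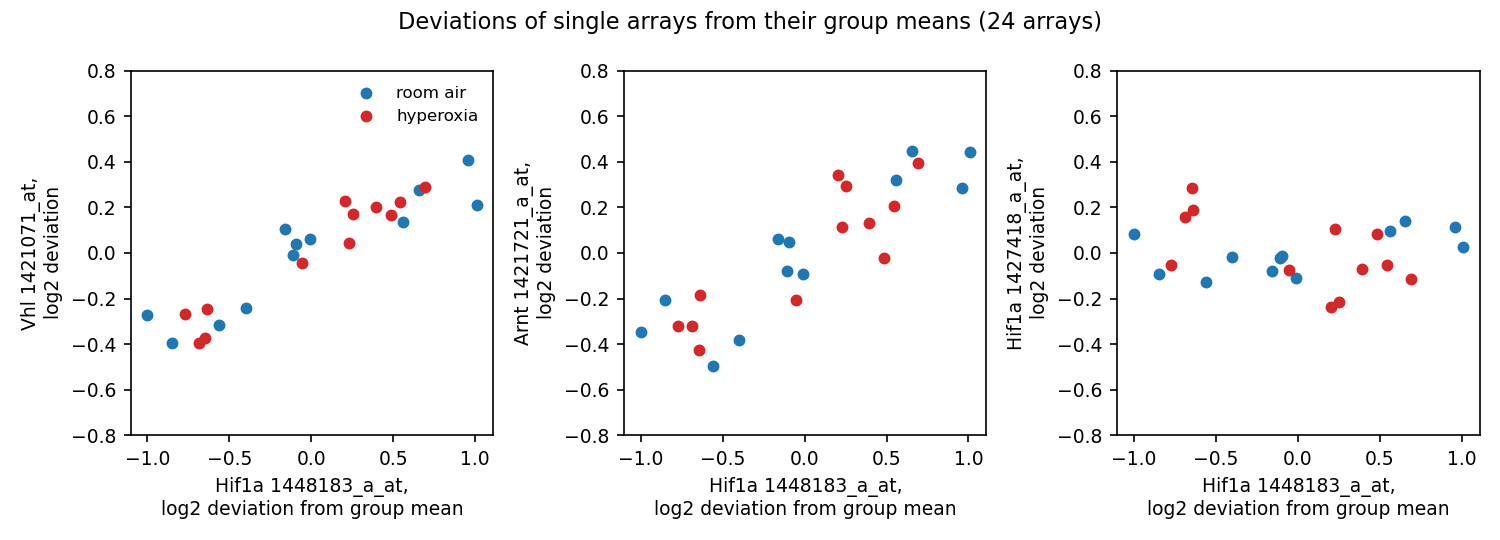
Deviation of each of the 24 arrays from its group mean (log2) in Hif1a 1448183_a_at (x axis) against that in Vhl, Arnt 1421721_a_at and Hif1a 1427418_a_at (y axes), for room air (blue) and hyperoxia (red). Vhl and Arnt follow the x axis closely (r of 0.93 and 0.88), and the other Hif1a probe set does not (r of -0.09).

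The genes most like the members were taken by Pearson r over the 24 arrays, as a description. For Egln1 1423785_at they were Plod2, a lysyl hydroxylase of collagen (r = 0.81), Fam162a, a mitochondrial protein induced by low oxygen (r = 0.77), and Tmem185b (r = 0.75). For Egln3 1418649_at they were Tcf19, Lrwd1 and Hexim1 (r = 0.72 to 0.75). For Hif1a 1427418_a_at they were Rlbp1, a retinoid-binding protein of Müller glia (r = 0.83), Lgalsl (r = 0.82) and Trpm7, a cation channel (r = 0.80).

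Proteins that act on or with the HIF subunits gave no calls for hyperoxia either. Of 35 listed partners, such as components of the VHL ligase, coactivators, chaperones and related bHLH-PAS factors, 22 were tested. For hyperoxia limma called 0 on any day or on average, with 1 at an unadjusted p under 0.05 on average, and the median was 0.03, beside 0.0033 over all probe sets. The lowest p on average was that of Ahrr, the repressor of the aryl hydrocarbon receptor, at -0.20 ± 0.08 (adjusted p = 0.495), followed by Sim1, Arntl2, Os9 and Elob at 0.20, 0.17, -0.10 and -0.07. With age in room air 2 rose and 0 fell, or 9.09% of the 22, beside 12.4% of all probe sets called and 7.16% higher, which is near the background. Ahr, the aryl hydrocarbon receptor, which also pairs with ARNT, rose by 1.06 ± 0.16 (adjusted p = 0.000197) and Ahrr by 0.71 ± 0.17 (adjusted p = 0.00767). Usp33, a deubiquitinase, was at 0.56 ± 0.19 (adjusted p = 0.0683).

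Other oxygenases that, like the EGLN enzymes, use oxoglutarate and oxygen were fixed as a further list, with 20 of 30 tested. On average over the days 1 fell and 0 rose, or 5% of the 20, beside 0.492% of all probe sets called. The median was -0.05. P4ha1, the catalytic subunit of collagen prolyl hydroxylase, fell by 0.46 ± 0.06 (adjusted p = 0.000631). Kdm3a, a histone demethylase, was at -0.23 ± 0.06, Plod2 by its brightest probe set at -0.20 ± 0.05, Plod1 at -0.19 ± 0.06 and P4ha2 at -0.30 ± 0.10 (adjusted p from 0.154 to 0.356). The dimmer Plod2 probe set, the one most like Egln1, fell by 0.40 ± 0.06 (adjusted p = 0.00201), so the probe sets of this gene differ in their call. With age in room air Kdm2b and Kdm3a fell by 0.59 ± 0.12 and 0.45 ± 0.12 (adjusted p = 0.00188 and 0.02), and Kdm3b rose by 0.40 ± 0.13 (adjusted p = 0.0436). Called with age were 15% of the 20, beside 12.4% of all probe sets, which is near the background. P4ha1, P4ha2 and Kdm3a also stand on the list of HIF targets.

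Known targets of HIF are set beside its regulators, each by the brightest tested probe set of the gene. The list was written with earlier results of these data known, so its counts are not independent support. HIF activity was not tested. Of 37 tested, 6, 8, 3 and 0 fell at days 7, 8, 10 and 12 and 0 rose. Their medians were -0.34, -0.38, -0.25 and -0.06, beside 0.01, 0.0038, -0.0037 and -0.0034 over all probe sets. On average 14 fell, or 37.8%, beside 0.492% of all probe sets called. They were led by p by Pfkl, Bnip3, Pfkp, Vegfa and Pgam1, at -0.59, -0.63, -0.66, -0.60 and -0.34. Egln1 1423785_at was at -0.32 at day 12, where the target median was -0.06. The second Egln1 probe set, 1451110_at, was at -0.15 ± 0.20 there (limma adjusted p = 0.883). A difference of Egln1 from the targets was not tested. With age in room air 6 targets rose and 2 fell, and Aldoc, Hk1 and Bhlhe40 rose by 0.90, 0.58 and 1.96. In hyperoxia 15 rose and 1 fell with age. Called in either direction were 21.6% of the targets in room air and 43.2% in hyperoxia, beside 12.4% and 12.6% of all probe sets. For the hyperoxia difference at day 12 minus that at day 7, limma called 0 of the 37 targets. Their median there was 0.21, beside -0.01 over all probe sets. At an unadjusted p under 0.05 were 10 of the 37, beside 6.21% of all probe sets. A different course in hyperoxia was thus not shown for any single target.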

How the data were processed

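The deposited table holds a linear intensity for each of 22690 probe sets on every array. Trimmed means (2% off each end) lay between 1500.351 and 1500.403 on every array, so the deposited intensities were scaled; the software used is not given in the sources used here. Values were quantile normalized because array medians spanned 0.25 on the log2 scale, raised to the 20th percentile (136.8) where lower, and taken to log2. The 64 control probe sets and probe sets with a mean under the 30th percentile were left out, which left 15838. Members were matched by 1 symbol of the platform annotation.

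All 24 arrays entered a single linear model with 8 group means in limma 3.58.1 (R 4.3.3), which gave 9 comparisons. A probe set was called where its p, adjusted over all tested probe sets by Benjamini and Hochberg's method, was under 0.05. It has 16 residual and 3.55 prior degrees of freedom. The number of arrays limits the precision. The test was checked on simulated data. Permutation tests used Python 3.11.15.

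The members and lists were chosen with earlier results of these data known. Named were all members, and from each list up to 5 genes with the lowest p for the average hyperoxia difference and 3 with the lowest p for age in room air, by the brightest probe set of a gene. Most alike genes were named for the 3 members with the lowest p over the 8 groups. Alternatives covered scaling, floor, filter, prior, arrays in the fit, replicate block, marker scores, gene means and single arrays left out. Those without lens-rich arrays, with the Hif1a covariate and with a replicate block within each day were added after seeing the data. An uncalled difference counts as changed only where it became called.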

Additional observations from a re-analysis of the deposited data

Results flagged for a closer look

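Arnt probe set 1425064_at pointed in opposite ways on different days without overlap of the arrays. Upward separation at day 8 was met in 4.48% of all probe sets and downward separation at day 10 in 11.9%. Hyperoxia was higher than room air by 0.43 on the log2 scale at day 8 and differed by -0.24 at day 10. The F test of a difference among the days did not pass (F = 2.75, limma adjusted p = 0.779). The other Arnt probe set, 1421721_a_at, was at 0.22 ± 0.27 and 0.29 ± 0.27 on these days.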

How the results depend on the processing

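Among member values, 4491 of 4516 kept their side of the threshold. Of those called in the main or the other fit, 0 changed sign. Uncalled values could change sign, as Hif1a 1448183_a_at did for hyperoxia at day 10 (0.53 in the main fit, -0.997 at the lowest). The member counts at days 7, 10 and 12, of the change in effect and of the F test were 0 in every setting. Where 1 was called on average over the days, the count was 2 with the replicate block (Egln1 1451110_at, -0.39, adjusted p = 0.0383) and 2 with the replicate block within each day (the same probe set, adjusted p = 0.0385), 0 with the endothelial score, and 1 to 2 without single arrays (2 without room air day 8 replicate 1, adjusted p = 0.0218). At day 8 it was 0, and 1 with the endothelial score (Egln1 1451110_at, -1.05, adjusted p = 0.0296) and with gene means (Egln1, -0.55, adjusted p = 0.0485), and 0 to 0 without single arrays. For age in room air it was 1, but 0 with only the arrays compared, with the endothelial score, with gene means and without the 2 lens-rich arrays, 2 with the Hif1a covariate (Arnt2 1420670_at, -0.84, adjusted p = 0.0245), and 0 to 1 without single arrays. For age in hyperoxia it was 1, but 0 on the deposited scaling, with the higher floor, without a filter, with the higher filter (which leaves Egln3 out), with only the arrays compared, with lens and pigment scores, with gene means, without the 2 lens-rich arrays and with the Hif1a covariate, and 0 to 1 without single arrays. With a robust prior the count for age in hyperoxia stayed at 1, but through Hif1a 1427418_a_at (limma adjusted p = 0.0393). Egln3 1418649_at was not called there (limma adjusted p = 0.0634). The causes were not tested. Correlations of same-numbered deviations ran from -0.31 to 0.45 over 12 pairs, and 5 were over 0.1, among them all 3 at day 12 (from 0.23). The numbers therefore could pair the arrays at day 12 but were not taken as pairs over the 4 days. The blocks changed no other call of a member. Dim probe sets of Egln3, Epas1 and Arnt2 limit what can be seen near the floor.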
